A study of Mus musculus with 48 samples.

Results

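A set of 10 genes for transcription factors, Otx1, Otx2, Six3, Six6, Vax1, Isl1, Dlx1, Dlx5, Emx2 and Ebf2, were followed through ribosome-bound RNA of gonadotropin-releasing hormone (GnRH) neurons. They were taken by name, as factors of GnRH neuron development or of Gnrh1 control, and are 10 of the 23284 genes counted. The tissue was the preoptic area of mice that the series calls female, though its protocol text also speaks of both sexes, and the RNA was sequenced as a poly(A) library. All groups but 1 pair came from GnRH CRE x Floxed L10a-GFP offspring, in which Cre recombinase in GnRH neurons switches on a GFP-tagged ribosomal protein, L10a. The tagged ribosomes were immunoprecipitated (IP), and the RNA left over was sequenced as the GnRH-depleted supernatant. Young mice were prepubertal and adult mice in diestrus, and both ages had received vehicle or dihydrotestosterone (DHT), an androgen, before birth. Both fractions were sequenced for young vehicle (n = 6), young DHT (n = 6), adult vehicle (n = 5) and adult DHT (n = 6). Another 1 IP and 1 supernatant library were from young mice of the genotype Floxed L10a-GFP, without Cre, so that no ribosomes should carry the tag. Whether a replicate was 1 animal or several is not said in the labels, and the p-values therefore reflect only how far these libraries spread.

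GnRH neurons arise near the olfactory placode, migrate along the nasal axons into the forebrain and settle in the preoptic area, where they release the hormone that drives the pituitary and the gonads. Otx, sine oculis (Six3 and Six6), Vax, Isl, Dlx and Emx proteins bind DNA through a homeodomain, and Ebf2 through the separate DNA-binding domain of the Olf/EBF family. Otx2, Six3, Six6, Vax1 and Dlx proteins are known to act on the enhancers or the promoter of Gnrh1 in cultured GnRH neurons. Otx2, Six6 and Vax1 are also needed in mice for a normal number of GnRH neurons or for fertility.

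Several of these genes are relatives, and reads can be credited to one relative or the other only where the letters differ. The longest run that each pair below shares without a mismatch is therefore shown, with 24 bases on either side. It need not be the stretch of highest identity. The coding strands were read 5′ to 3′ from GRCm38 (mm10) with GENCODE M21. Capitals mark the longest run that a pair shares without a mismatch in their longest coding transcripts.
Otx1, chr11:21998394-21998459, minus strand: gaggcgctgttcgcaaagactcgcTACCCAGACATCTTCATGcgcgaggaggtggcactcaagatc
Otx2, chr14:48661323-48661388, minus strand: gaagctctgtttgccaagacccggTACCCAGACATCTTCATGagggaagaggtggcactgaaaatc
Six6, chr12:72940134-72940201, plus strand: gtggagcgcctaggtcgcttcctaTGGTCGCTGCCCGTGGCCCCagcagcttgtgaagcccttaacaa
Six3, chr17:85621555-85621622, plus strand: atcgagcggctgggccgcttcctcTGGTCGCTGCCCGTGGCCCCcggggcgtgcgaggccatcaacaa
Dlx1, chr2:71531004-71531065, plus strand: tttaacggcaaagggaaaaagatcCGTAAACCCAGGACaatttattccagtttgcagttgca
Dlx5, chr6:6879617-6879678, minus strand: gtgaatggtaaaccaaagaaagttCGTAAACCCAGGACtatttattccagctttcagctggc
The shared run was 18 bases in the Otx pair, 20 in the Six6 and Six3 pair and 14 in the Dlx pair. Within the windows printed, 55 of 66 bases were identical in the Otx pair, 54 of 68 in the Six6 and Six3 pair and 45 of 62 in the Dlx pair. The pairs therefore differ at several bases on both sides of every run shown.

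Library totals ran from 28136000 to 55479451 counts, and values are given as CPM, the counts scaled to a common library total. Gnrh1, the mark of the neurons sought, had 4982 ± 3826 CPM (mean ± SD, n = 23) in the IP, against 34.6 ± 9.39 CPM (n = 23) in the supernatant. The pair without Cre had 61.6 CPM (IP) and 38.2 CPM (supernatant). Most astrocyte and oligodendrocyte markers were lower in the IP than in supernatant but not absent (5 of 6 and 3 of 5 genes called). The summed astrocyte genes came to 181.2 to 335.3 CPM in adult vehicle IP and 373.4 to 527.6 CPM in young vehicle IP. Their supernatants had 359.2 to 604.4 and 435.2 to 553.1 CPM, and the IP without Cre 435.4 CPM. Oligodendrocyte sums had IP medians of 3466 (young vehicle) and 3832 CPM (young DHT), against 3964 and 3857 CPM in supernatant. In adults these were 1292 (vehicle) and 1631 CPM (DHT), against 1891 and 1943 CPM. Precursor genes of oligodendrocytes had higher summed medians in adult IP (23.3 vehicle, 19.5 DHT) than supernatant (16.3, 15.2 CPM), and lower in young. Replicates resembled each other less in the IP, where the median correlation of log2 CPM between libraries of a group was 0.85 to 0.89, than in the supernatant, where it was 0.97 to 0.98. In RNA from whole fractions, fewer cells of a type and less RNA per cell cannot be told apart.

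Per length of transcript, Isl1 and Dlx5 were the most abundant members in the IP, with 40.9 ± 11.1 and 39.7 ± 9.38 CPM per kilobase (SD, n = 23). Six3 (21.4 ± 6.15), Otx1 (15.04 ± 8.05), Six6 (14.2 ± 6.89) and Dlx1 (12.7 ± 2.74) followed, and Vax1 (4.73 ± 1.99), Otx2 (2.11 ± 1.35), Emx2 (0.836 ± 0.591) and Ebf2 (0.326 ± 0.502) were low on that scale. The SD ranges of neighbours in this order overlapped except between Dlx5 and Six3 and between Dlx1 and Vax1. In the supernatant the order was Dlx5 (30.4 ± 2.81), Six3 (27.02 ± 3.25), Isl1 (23.4 ± 3.06), Dlx1 (12.7 ± 1.28), Vax1 (5.46 ± 1.63), Six6 (2.06 ± 1.03), Otx2 (1.64 ± 0.381), Emx2 (1.44 ± 0.369), Otx1 (0.454 ± 0.170) and Ebf2 (0.207 ± 0.107). Otx1 thus ranked 4 of 10 in the IP and 9 of 10 in the supernatant.

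**Figure D1:**
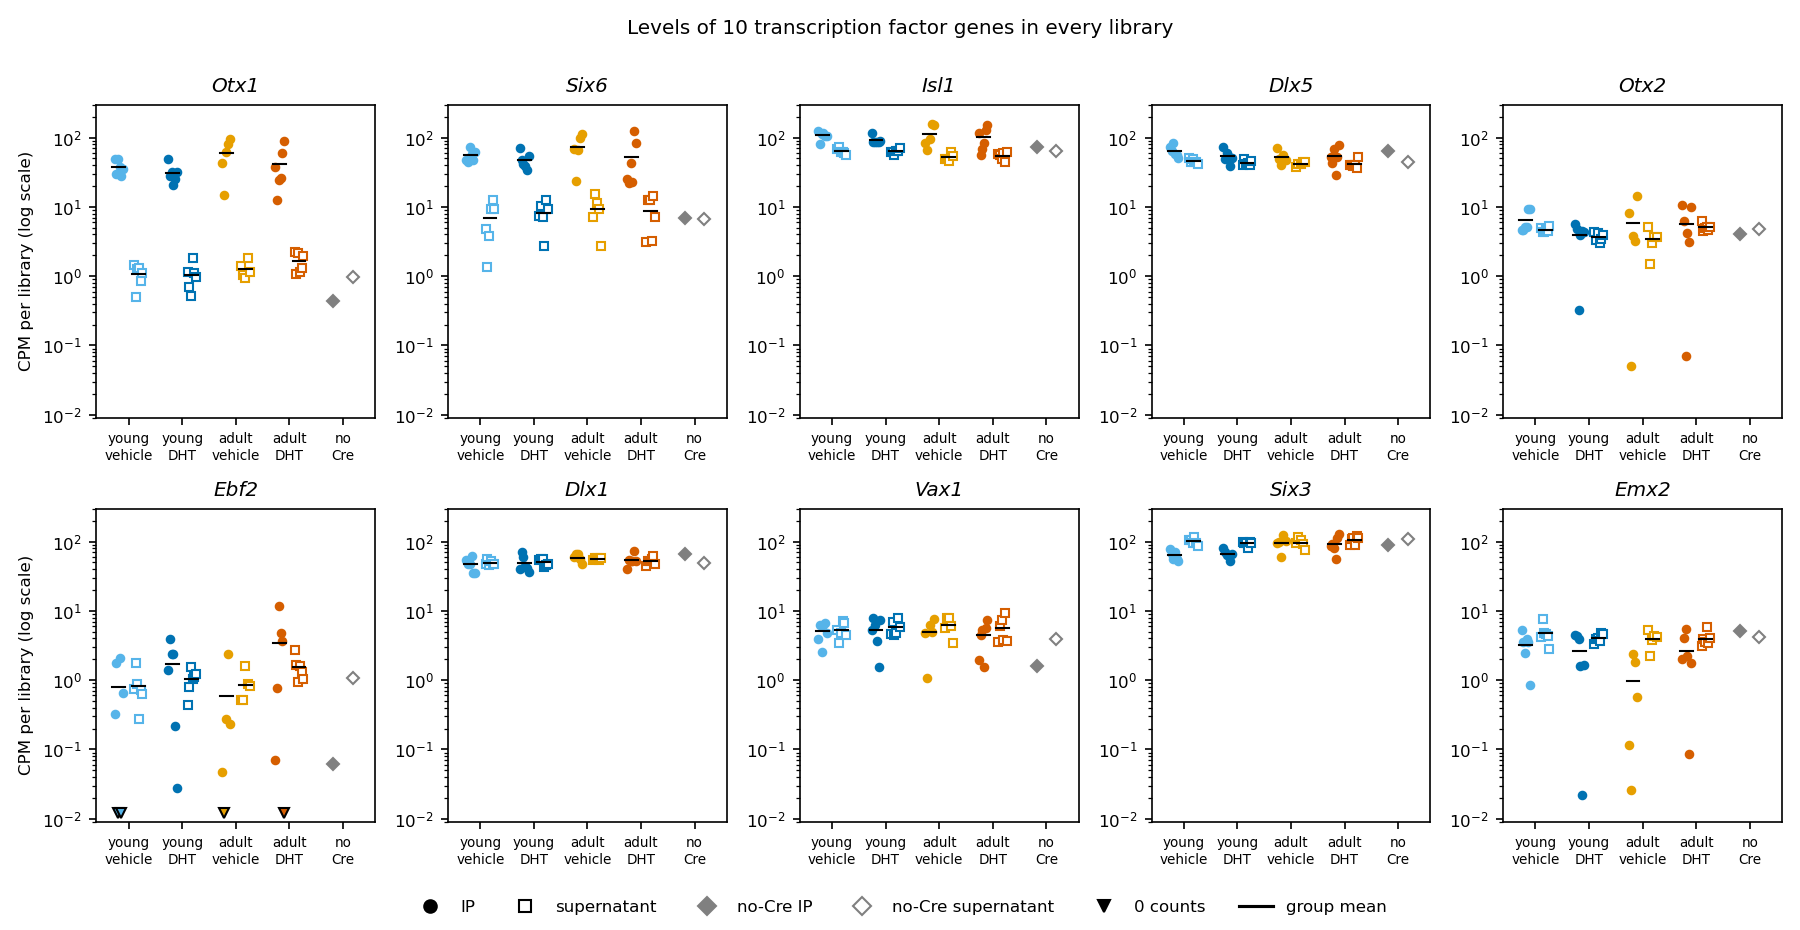
CPM of each gene (log axis) in every library of the 4 conditions, with filled circles for IP, open squares for supernatant, black bars for group means, grey diamonds for the pair without Cre, and triangles for libraries with 0 counts of Ebf2. Otx1 and Six6 lie higher in every IP library than in any supernatant library, while Otx2, Emx2 and Ebf2 scatter downward in single IP libraries.

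Averaged over the 4 conditions, 4 of the 10 genes were higher in the IP than in the supernatant (Otx1, Six6, Isl1 and Dlx5), where 24.4% of the 16660 genes tested were called higher. Another 2 were lower (Six3 and Emx2), where 21.7% of genes were called lower. These shares depend on the fit: a block for condition and replicate number gave 3530 genes higher and 5867 lower, against 4065 and 3619 here. All 10 passed the filter on low counts. The members' median log2 fold change stood at 0.40, against -0.00 over all genes tested. By condition, 5 members were called in young vehicle mice (21.9% of genes tested), 4 in young DHT mice (20% of genes), 4 in adult vehicle mice (24% of genes) and 4 in adult DHT mice (21.5% of genes). Otx1, Six6 and Isl1 were called higher in each of the 4 conditions. The share of members called higher on average was above its background and the share called lower near it. However, 10 genes chosen for their part in this neuron type are few, and no test was made of the list. The members were also chosen with earlier results of these data known, so their share is not independent of the data. Of the 4 called higher, Dlx5 (0.43) had as large a log2 ratio in the pair without Cre (0.51).

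**Figure D2:**
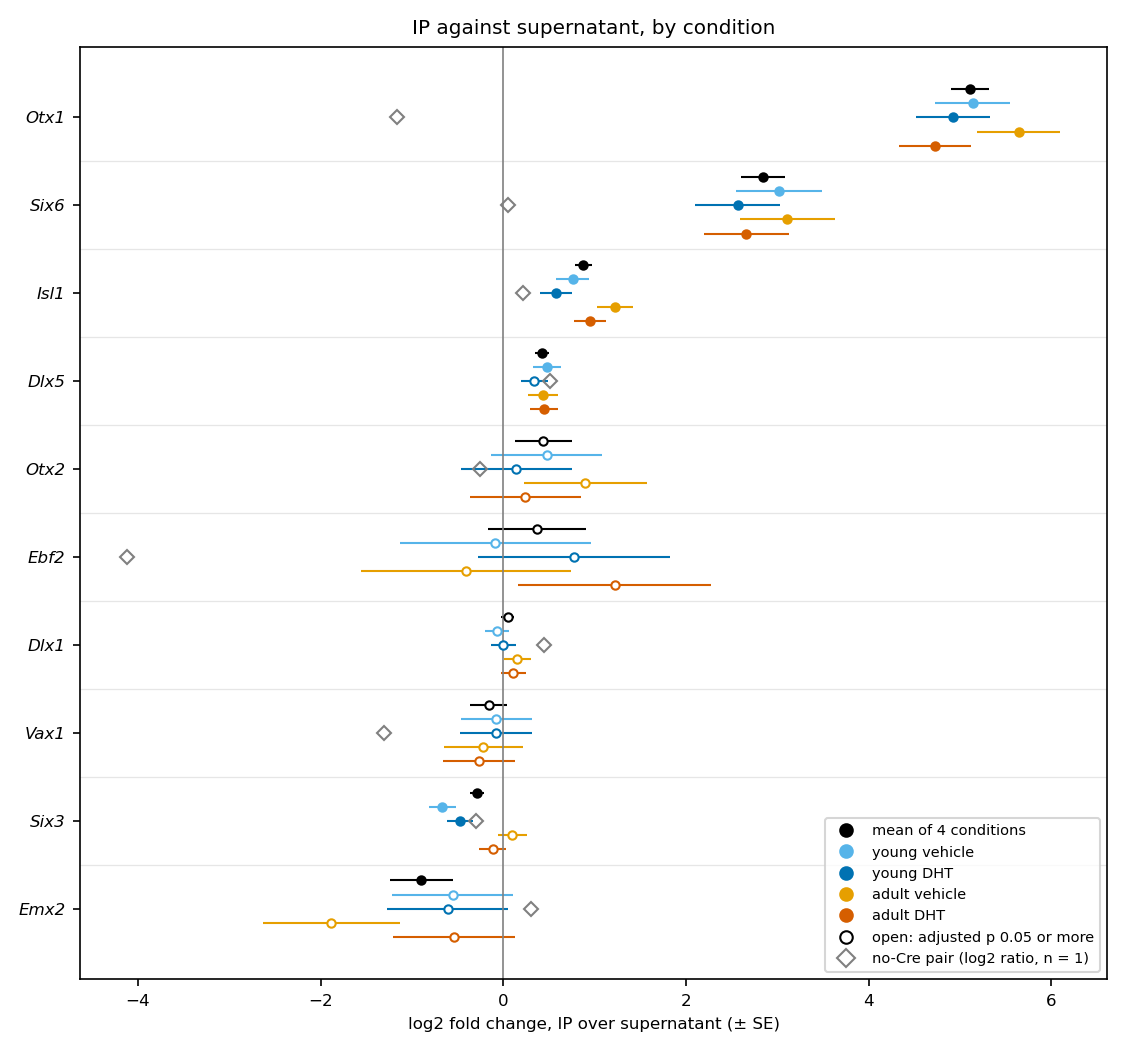
Log2 fold change of IP over supernatant (x axis, with its SE) for each gene, averaged over conditions (black) and in each condition (colours), with filled points where the edgeR adjusted p was below 0.05 and grey diamonds for the log2 ratio of the single pair without Cre. Otx1 and Six6 lie far to the right with the diamond at or left of 0, whereas the diamond of Dlx5 (0.51) lies to the right of its 4 coloured points (0.34 to 0.48).

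Otx1 encodes an orthodenticle homeodomain protein of the developing forebrain and of the hormonal axis, and showed the largest difference of the 10. It lies on chromosome 11 (21994764 to 22002897, minus strand). In the IP it had a lowest, median and highest value of 28.3, 36.8 and 49.6 CPM in young vehicle mice, 20.4, 30.02 and 49.8 CPM in young DHT mice, and 12.8, 32.1 and 89.4 CPM in adult DHT mice. The 5 adult vehicle IP libraries had 15.04, 43.6, 62.2, 79.7 and 95.5 CPM. The 23 supernatant libraries had from 0.502 to 2.22 CPM with a median of 1.15 CPM, so the fractions did not overlap, and the spread between IP libraries was wider in adults (7.48-fold from lowest to highest) than in young mice (2.44-fold). Over all conditions the log2 fold change was 5.11 ± 0.21 (SE), which is 34.5-fold, with an edgeR adjusted p of 2.48e-24. By condition it ran from 4.73 in adult DHT mice to 5.64 in adult vehicle mice. The IP without Cre held 14 counts of Otx1, or 0.431 CPM (95% exact Poisson interval 0.236 to 0.723, counting error only), below the 0.967 CPM of its supernatant, and all 12 young IP libraries with Cre were above it.

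Otx2, the nearest relative of Otx1 and an activator of Gnrh1 in cultured neurons, was not called in this comparison. Its IP mean was 5.47 ± 3.51 CPM (SD, n = 23), and its supernatant mean 4.25 ± 0.987 CPM (n = 23). The young vehicle IP libraries ranged from 4.68 to 9.31 CPM, close to or above their supernatant (4.32 to 5.27 CPM). In the other 3 conditions the IP held 1 library each that was nearly empty of Otx2: 0.324 CPM (young DHT), 0.0512 CPM (adult vehicle) and 0.0698 CPM (adult DHT). The remaining adult IP libraries reached 14.5 CPM, so that the fractions overlapped. The log2 fold change came to 0.44 ± 0.31 (SE; edgeR adjusted p = 0.258). Otx1 and Otx2, whose shared run is printed above, therefore stood apart in these libraries: Otx1 exceeded every supernatant library in all 23 IP libraries, and Otx2 in 7 of 23. Otx2 had 4.07 CPM (IP) and 4.86 CPM (supernatant) in the pair without Cre. The 12 young IP libraries with Cre averaged 5.15 CPM, and 10 of them were above that IP.

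Six6, a sine oculis homeodomain factor of the retina, pituitary and hypothalamus, lies on chromosome 12 (72939892 to 72944899, plus strand). In the IP its lowest, median and highest values were 44.6, 53.4 and 73.6 CPM in young vehicle mice, 34.3, 44.7 and 70.7 CPM in young DHT mice, and 22.03, 34.6 and 122.8 CPM in adult DHT mice. The adult vehicle IP libraries had 23.4, 65.7, 67.9, 97.6 and 113.8 CPM. Over the 23 supernatant libraries Six6 ranged from 1.36 to 15.2 CPM with a median of 9.36 CPM, and no supernatant library reached the lowest IP library. The log2 fold change stood at 2.84 ± 0.24 (SE), or 7.16-fold (edgeR adjusted p = 1.93e-13), and by condition it ran from 2.57 in young DHT to 3.11 in adult vehicle mice. Without Cre the values were 6.87 CPM (IP) and 6.60 CPM (supernatant), a ratio of 1.04 (95% exact interval 0.864 to 1.25), and all 12 young IP libraries with Cre exceeded that IP.

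Six3, the closest relative of Six6 and a repressor in the forebrain, went the other way. The young vehicle IP libraries had a lowest, median and highest value of 52.1, 62.02 and 78.6 CPM, all below the 86.2 CPM of the lowest young vehicle supernatant library. In young DHT mice the IP gave 52.6, 64.5 and 81.8 CPM and the supernatant 79.7, 96.7 and 98.6 CPM, so a single IP library passed the lowest supernatant. In adults the fractions overlapped, with 60.6, 95.9, 98.05, 102.7 and 124.1 CPM in the vehicle IP and 75.1, 93.4, 96.1, 104.6 and 115.9 CPM in the vehicle supernatant. Averaged over conditions Six3 was lower in the IP, with a log2 fold change of -0.29 ± 0.07 (SE; edgeR adjusted p = 0.00123). It was called lower in young vehicle mice (-0.67, edgeR adjusted p = 0.00062) and young DHT mice (-0.47, edgeR adjusted p = 0.0166), and had 0.10 (adult vehicle) and -0.12 (adult DHT) without a call. The young DHT call was lost without the 10 libraries of young mice that have the last sample numbers in the labels (-0.48, edgeR adjusted p = 0.178). Their removal leaves smaller young groups and so less power, here with almost the same log2 fold change. The IP without Cre held 89.7 CPM against 110.8 CPM in its supernatant, a log2 ratio of -0.30, and none of the 12 young IP libraries with Cre reached that IP.

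Isl1, a LIM homeodomain factor of many hypothalamic and motor neurons, was higher in the IP by a smaller step. Its young vehicle IP libraries had 82.0 to 123.9 CPM and its young DHT IP libraries 86.4 to 117.6 CPM, all above every young supernatant library (55.9 to 74.5 CPM). The adult vehicle IP libraries had 66.9, 83.0, 96.4, 153.3 and 157.7 CPM, and the adult DHT IP libraries 55.8 to 153.6 CPM with a median of 101.4 CPM. In adults 1 IP library, of DHT mice, fell within the supernatant range of 45.1 to 62.1 CPM. Its log2 fold change over all conditions was 0.88 ± 0.09 (SE), or 1.84-fold (edgeR adjusted p = 4.96e-11), with values of 0.76 (young vehicle), 0.58 (young DHT), 1.22 (adult vehicle) and 0.95 (adult DHT). Without Cre the IP had 74.5 CPM and the supernatant 64.1 CPM, a ratio of 1.16 (95% exact interval 1.10 to 1.23), and all 12 young IP libraries with Cre were above that IP. For Isl1, leaving out those last 10 sample numbers ended the call in young vehicle (0.64, edgeR adjusted p = 0.0592) and young DHT mice (0.62, edgeR adjusted p = 0.162). That removal leaves smaller young groups, and the log2 fold changes with all libraries were 0.76 and 0.58. In both conditions Isl1 kept its call in 8 of 9 alternatives.

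Vax1, a ventral forebrain homeodomain factor whose loss lowers GnRH neuron number in mice, was not called between the fractions. Its IP mean was 4.94 ± 2.08 CPM (SD, n = 23) against 5.70 ± 1.70 CPM (n = 23) in supernatant, and 5 of 23 IP libraries lay below every supernatant library. The log2 fold change came to -0.16 ± 0.20 (SE; edgeR adjusted p = 0.551). Without Cre, Vax1 had 1.60 CPM (IP) and 3.95 CPM (supernatant), and 11 of 12 young IP libraries with Cre were above that IP.

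The distal-less genes Dlx1 and Dlx5 are factors of forebrain GABA neurons. Dlx5 averaged 56.4 ± 13.3 CPM (SD, n = 23) in IP against 43.3 ± 4.00 CPM (n = 23) in supernatant libraries, and 13 of 23 IP libraries exceeded every supernatant library. Its log2 fold change stood at 0.43 ± 0.08 (SE; edgeR adjusted p = 9.69e-06), and it was called in young vehicle (0.48), adult vehicle (0.44) and adult DHT mice (0.45) but not in young DHT mice (0.34, edgeR adjusted p = 0.109). The pair without Cre had the same direction and a like size, 64.1 CPM against 45.1 CPM, a ratio of 1.42 (95% exact interval 1.33 to 1.52), and 4 of 12 young IP libraries with Cre were above that IP. The call in adult vehicle mice (edgeR adjusted p = 0.0471) was lost in 9 of 10 fits that left out 1 library and in 6 of 9 other alternatives, and that in adult DHT mice (edgeR adjusted p = 0.0266) in 6 of 12 and 3 of 9. In young vehicle mice it was lost without IP replicate 3 (edgeR adjusted p = 0.0581) and without the last 10 sample numbers (edgeR adjusted p = 0.0735). Dlx1 averaged 52.1 ± 11.3 CPM in IP and 52.1 ± 5.28 CPM in supernatant libraries, with a log2 fold change of 0.05 ± 0.07 (SE; edgeR adjusted p = 0.603). Without Cre, Dlx1 had 66.8 CPM (IP) and 49.2 CPM (supernatant), and 1 of 12 young IP libraries with Cre was above that IP.

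Emx2, an empty spiracles homeodomain factor of cortex and reproductive tract, was lower in the IP, with 2.44 ± 1.72 CPM (SD, n = 23) against 4.19 ± 1.08 CPM (n = 23). In the young vehicle IP it ranged from 0.844 to 5.35 CPM, and in the young DHT IP from 0.022 to 4.44 CPM. The adult vehicle IP libraries had 0.0256, 0.116, 0.576, 1.80 and 2.40 CPM, and the adult DHT IP libraries from 0.0850 to 5.41 CPM, while no supernatant library fell under 2.24 CPM. Thus 12 of 23 IP libraries were below every supernatant library, and 2 had fewer than 3 counts. The log2 fold change was estimated at -0.90 ± 0.34 (SE; edgeR adjusted p = 0.0284), with no call in any single condition, and the call was lost without the last 10 sample numbers (-0.74, edgeR adjusted p = 0.119). The IP without Cre held 5.14 CPM, more than 11 of the 12 young IP libraries with Cre.

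Ebf2, an early B-cell factor known in olfactory and migrating GnRH neurons, was the scarcest member. In the IP it ranged from 0 to 2.05 CPM in young vehicle, from 0.0277 to 3.93 CPM in young DHT and from 0 to 11.7 CPM in adult DHT mice, with 0, 0.0465, 0.236, 0.276 and 2.35 CPM in adult vehicle mice. It had no counts in 4 of the 23 IP libraries, which allows up to 3 counts in each. At the highest and lowest totals of any library, both from supernatant libraries, 3 counts are 0.0541 and 0.107 CPM. In the supernatant Ebf2 ranged from 0.270 to 2.76 CPM. The log2 fold change of 0.37 ± 0.54 (SE; edgeR adjusted p = 0.603) had no stable sign, since it turned to -0.90 in the fit with a replicate block and to -0.77 in limma-voom with sample weights. The IP without Cre held 2 counts, and the ratio of its pair, 0.0574, had a 95% exact interval of 0.00671 to 0.221.

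Across the 23 IP libraries, Otx1, Six6 and Isl1 were high where Gnrh1 was high, and the r of the other members did not pass. On log2 CPM, Pearson's r with Gnrh1 was 0.82 for Otx1 (Spearman's rho 0.63), 0.80 for Six6 (rho 0.72) and 0.75 for Isl1 (rho 0.57), with permutation p of 1e-05, 3e-05 and 5e-05, of which the first is the smallest the resampling can give. Adjusted over the 10 members these were 0.0001, 0.00015 and 0.000167, and for rho 0.00845, 0.0017 and 0.0198. Without the 2 libraries farthest from the median of Gnrh1, r was 0.72, 0.72 and 0.60. Within the 11 adult IP libraries r was 0.95 for Otx1, 0.89 for Six6 and 0.87 for Isl1 (adjusted permutation p = 0.0002, 0.00025 and 0.000967). Within the 12 young IP libraries it was -0.06, 0.31 and 0.15, with adjusted permutation p of 0.958, 0.826 and 0.826, so the relation did not hold in young mice. Gnrh1 itself spanned 24.2-fold across adult IP libraries and 3.89-fold across young ones. In adults Vax1 also had a rho of 0.83 (adjusted permutation p = 0.00733) with an r of 0.58 (adjusted permutation p = 0.147), and for the 7 members other than Otx1, Six6 and Isl1 the r over all 23 libraries lay between -0.20 and 0.38.

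**Figure D3:**
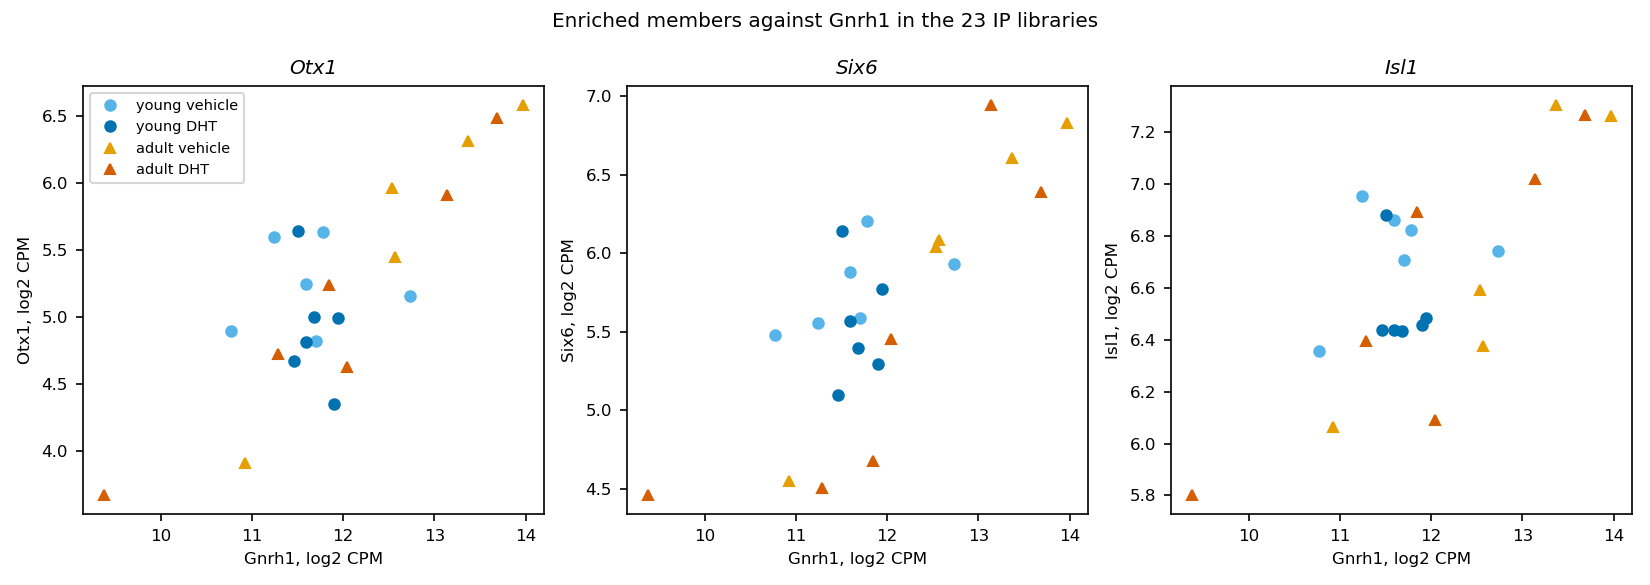
Log2 CPM of Otx1, Six6 and Isl1 (y axes) against log2 CPM of Gnrh1 (x axes) in the 23 IP libraries, circles for young and triangles for adult mice. The adult libraries run from low to high on both axes, with r of 0.95, 0.89 and 0.87, and the young libraries form a cloud with r of -0.06, 0.31 and 0.15.

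Likeness was ranked among 10532 tested genes whose IP mean reached 5 CPM, with the members and predicted-gene names left out. The genes most like Otx1 over the 23 IP libraries were Cxcl14, a chemokine (r = 0.87), Dmrtb1, a doublesex-related factor (0.86), and Tstd1, a sulfurtransferase-like protein (0.86). Those most like Six6 were Klhdc8b (0.88), Acbd7 (0.86) and Cxcl14 (0.83), and those most like Isl1 were Cxcl14 (0.84), Ube2e1 (0.80) and Il18 (0.80). The IP without Cre held 176.5 CPM of Ube2e1, 29.9 of Il18, 14.7 of Dmrtb1 and 138.9 of Klhdc8b. The young IP means with Cre were 195.0, 36.9, 19.9 and 213.4 CPM. For Cxcl14, Tstd1 and Acbd7 it held 37.6, 0.678 and 2.99 CPM, against 167.0, 23.8 and 18.1 CPM with Cre. Gnrh1 itself had rank 4 for Otx1, rank 10 for Six6 and rank 22 for Isl1. These r describe libraries that share their mice and their capture, and carry no test.

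Six6 varied most of the 10 members between supernatant libraries, from 1.36 to 15.2 CPM, which is 11.2-fold, followed by the scarce Ebf2 with 10.2-fold. It is also a known gene of the suprachiasmatic nucleus, the hypothalamic clock beside the preoptic area. In an analysis chosen after the data had been seen, Six6 was set against the mean log2 CPM of the suprachiasmatic genes Vip, Avp, Nms, Prok2 and Rorb in the 23 supernatant libraries. Pearson's r was 0.75 and Spearman's rho 0.65 (adjusted permutation p = 0.001 and 0.00625 over the 10 members), r was 0.58 without the 2 libraries farthest from the median of the list, 0.92 within the 12 young and 0.73 within the 11 adult libraries (adjusted permutation p = 0.0001 and 0.0478). In adults r was 0.42 without the 2 farthest libraries, so that relation rests on them. Isl1 was lower where the same list was higher (r = -0.64, adjusted permutation p = 0.00495), though not past the threshold within either age (r = -0.58 in young, -0.33 in adult), and Otx2 had -0.26 over all and -0.81 within adults (adjusted permutation p = 0.0097). In the 23 IP libraries none of the 10 members passed against this list (Six6 r = -0.19). The part of these markers in the IP to supernatant ratio of Six6 was not tested.

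**Figure D4:**
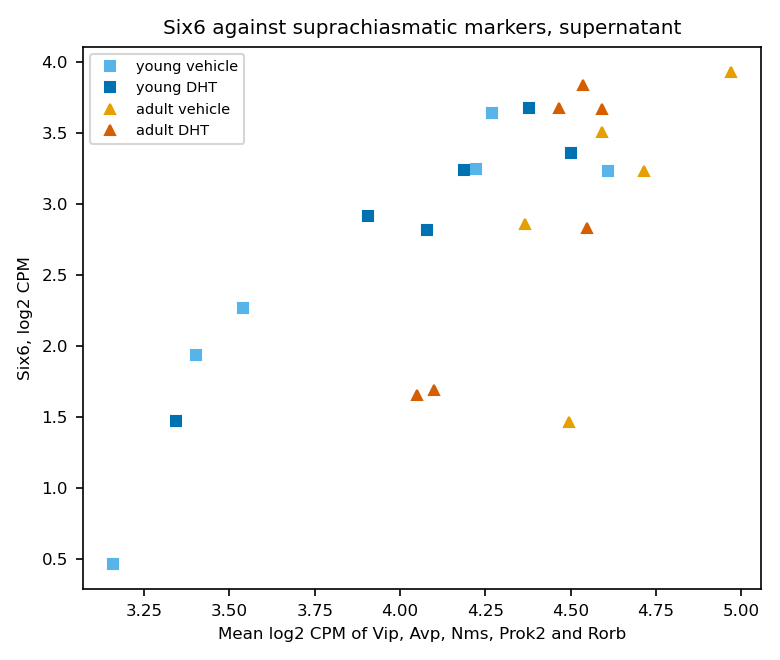
Log2 CPM of Six6 (y axis) against the mean log2 CPM of 5 suprachiasmatic genes (x axis) in the 23 supernatant libraries, squares for young and triangles for adult mice. Young libraries lie along a line (r = 0.92), and adult libraries scatter more (r = 0.73).

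Comparing adult with young mice asks whether these genes change across puberty. In the IP, Six3 was called higher in adults among vehicle mice, with a log2 fold change of 0.65 ± 0.18 (SE; edgeR adjusted p = 0.0461), from 63.4 ± 10.1 CPM (SD, n = 6) in young to 96.3 ± 22.8 CPM (n = 5) in adult libraries. It was 1 of 10 members, where 3.83% of genes were called. In DHT mice none of the 10 members was called in the IP, where 7.12% of genes were, and Six3 had 0.52 ± 0.18 (SE; edgeR adjusted p = 0.0766), from 66.2 ± 9.73 to 92.7 ± 25.02 CPM (n = 6 each). With an unadjusted p below 0.05 edgeR had 1 member there, and DESeq2 called 1. In the supernatant Six3 differed by -0.08 in vehicle and 0.16 in DHT mice, without a call. The difference between the ages in the IP to supernatant ratio was called for Six3 alone of the 10 members (0.56 ± 0.15 SE, edgeR adjusted p = 0.0192), where 4.52% of genes were called, and that call was lost in limma-voom and without the last 10 sample numbers. The vehicle IP call was lost in 7 of 9 alternative fits and in 10 of 11 fits without 1 library. Six3 was thus lower in the IP than in the supernatant in young mice, and near it in adults.

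Isl1 changed with age in the other fraction. It was lower in the adult than in the young supernatant of vehicle mice, from 63.9 ± 6.78 CPM (SD, n = 6) to 51.9 ± 6.32 CPM (n = 5), a log2 fold change of -0.33 ± 0.09 (SE; edgeR adjusted p = 0.0129). It was 1 of 10 members called there, where 20.3% of genes were called, so the share of members was below the background. That call was lost in 1 of 11 fits without 1 library, adult vehicle supernatant replicate 3 (edgeR adjusted p = 0.0523). In DHT mice no member was called in the supernatant, where 19.9% of genes were, and Isl1 had -0.20 ± 0.09 (SE; edgeR adjusted p = 0.104). There 3 members had an unadjusted p below 0.05 in edgeR, DESeq2 called none and limma-voom 1. All 5 oligodendrocyte genes fell with age in the vehicle supernatant, from 3571 to 4835 CPM in sum in young to 1597 to 2604 CPM in adult libraries. The mean log2 CPM of the suprachiasmatic genes ran there from 3.16 to 4.61 in young and from 4.37 to 4.97 in adult libraries. Over all supernatant libraries Isl1 was lower where that mean was higher (Pearson's r = -0.64), though not past the threshold within either age. The part of either set of genes in the Isl1 difference was not tested. In the IP, Isl1 differed between the ages by 0.09 in vehicle and 0.16 in DHT mice.

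The remaining members showed no called difference with age. Otx1 had log2 fold changes of 0.67 ± 0.39 (SE) in vehicle IP and 0.44 ± 0.38 in DHT IP, and Gnrh1 moved in the same direction with 1.23 ± 0.50 and 0.75 ± 0.48, both without an edgeR adjusted p below 0.05. Otx2 had -0.48 ± 0.19 in the supernatant of vehicle mice and 0.45 ± 0.18 in that of DHT mice, with edgeR adjusted p of 0.0813 and 0.0824. Emx2 had -1.67 ± 1.06 in vehicle IP, a value with a wide error from the libraries near 0.

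Prenatal DHT was compared with vehicle within each age and fraction, which is the treatment question of the study. No member was called in any of the 4 comparisons. The share of all genes called by edgeR was 0% in young IP, 0.00629% in adult IP, 0% in young supernatant and 0% in adult supernatant, so the count of members was at the background. Over all genes, the young supernatant had 39 calls without the last 10 sample numbers, and the adult IP had 151 in DESeq2. None of the 10 had an unadjusted p below 0.05 in the IP of either age or in the young supernatant, and 2 had one in the adult supernatant. DESeq2 and limma-voom called no member in any of them. The difference between the DHT effects of adult and young mice was called for 0% of genes and no member in the IP, and for 0% of genes and no member in the supernatant. None of the 10 had an unadjusted p below 0.05 for that difference in the IP and 1 did in the supernatant, and DESeq2 and limma-voom called none. Over all genes DESeq2 called 50 for that difference in the IP, and edgeR called 4 in the supernatant without the last 10 sample numbers.

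Among the 4 genes higher in the IP, no treatment difference in the IP had an unadjusted p below 0.05. Otx1 had a log2 fold change of -0.30 ± 0.37 (SE) in young and -0.52 ± 0.39 in adult IP, from 38.3 ± 9.06 to 31.3 ± 10.1 CPM and from 59.2 ± 31.4 to 41.8 ± 28.2 CPM (SD). Six6 had -0.22 ± 0.37 in young and -0.48 ± 0.38 in adult IP, Isl1 -0.23 ± 0.22 and -0.15 ± 0.23, and Dlx5 -0.26 ± 0.20 and 0.02 ± 0.21. Six3, lower in the IP, had 0.06 ± 0.18 and -0.07 ± 0.19. The 2 members with an unadjusted p below 0.05 in the adult supernatant were Otx2 and Ebf2, named after their values were seen. Otx2 had 1.48, 3.04, 3.66, 3.71 and 5.195 CPM in adult vehicle supernatant and a lowest, median and highest value of 4.52, 4.99 and 6.16 CPM in adult DHT supernatant, and 4 of the 5 vehicle libraries lay below every DHT library. Its log2 fold change there was 0.58 ± 0.19 (SE; edgeR adjusted p = 1), and in the young supernatant -0.35 ± 0.18 (edgeR adjusted p = 0.976). The difference of these effects was 0.93 ± 0.27 (SE; edgeR adjusted p = 0.875), which failed the correction over all genes. In the 11 adult supernatant libraries Otx2 was also lower where the suprachiasmatic genes were higher (Pearson's r = -0.81). The mean log2 CPM of those genes ran from 4.37 to 4.97 in vehicle and from 4.05 to 4.59 in DHT libraries. Their part in the Otx2 difference was not tested.

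**Figure D5:**
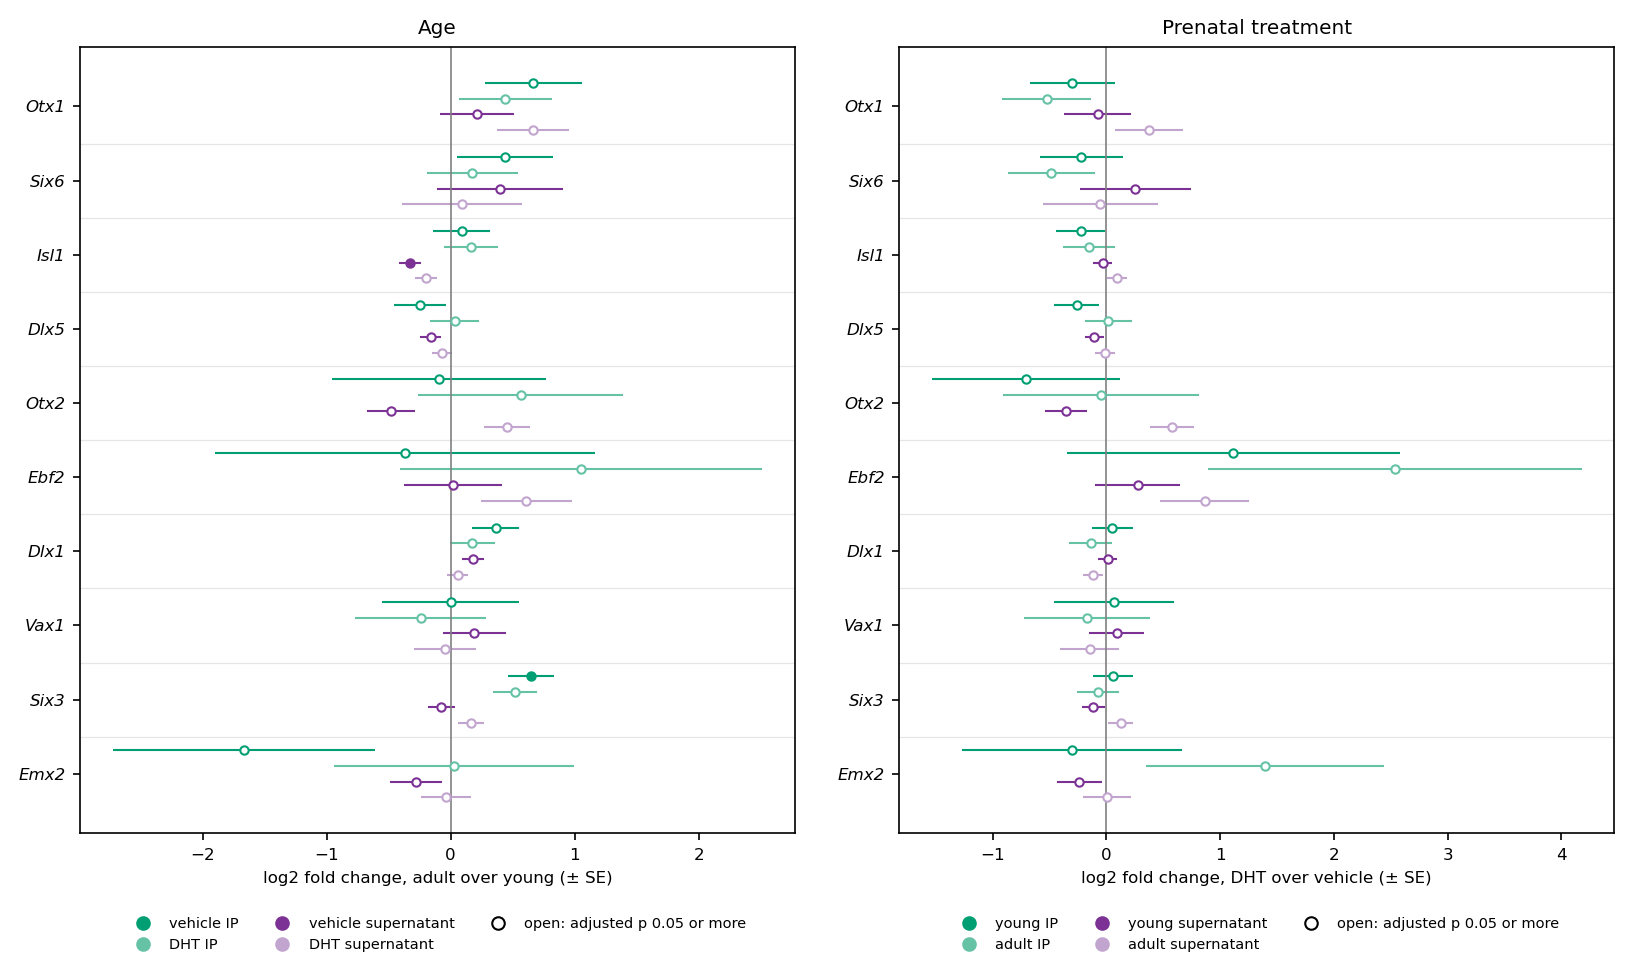
Log2 fold changes with their SE for adult over young (left) and DHT over vehicle (right) in IP and supernatant, filled where the edgeR adjusted p was below 0.05. The filled points are Six3 in vehicle IP (0.65) and Isl1 in vehicle supernatant (-0.33), and the right panel has none.

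Other regulators of GnRH neurons gave a mixed pattern in the IP. Of 25 listed, 22 were tested, 4 were called higher and 12 lower, where 24.4% of all genes tested were called higher and 21.7% lower. Their median log2 fold change was -0.38 against -0.00 over all genes. Those with the smallest adjusted p included Sox10, a factor of oligodendrocytes and olfactory ensheathing cells (-1.23), Chd7, the chromatin remodeller of CHARGE syndrome (1.63), Irf2bpl, listed in the table as 6430527G18Rik (-0.76), the progenitor factor Sox2 (-0.68) and the ventral hypothalamic factor Nkx2-1 (-0.76). Their edgeR adjusted p lay between 1.55e-13 and 4.84e-07. The log2 ratios of the pair without Cre were -1.91 for Sox10, -1.30 for Irf2bpl, -0.24 for Sox2 and -0.35 for Nkx2-1. For Sox10 and Irf2bpl the pair that lacked the tag thus had the larger drop, and for Sox2 and Nkx2-1 the smaller. Chd7 was 44.6 CPM (IP) and 14.8 CPM (supernatant) with Cre, and 109.5 and 13.2 CPM without Cre, so the pair that lacked the tag had the larger ratio. The remaining genes called higher were Nhlh2, Pou2f1 and Tle1, and the pair without Cre had a log2 ratio of 1.17 for Nhlh2 and 1.78 for Pou2f1, close to or above the log2 fold changes with Cre (1.24 and 1.16). For Tle1 the pair had -0.12 and the log2 fold change came to 0.47.

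Of 15 close relatives of the members, all tested, 2 were called higher in the IP and 4 lower, where 24.4% and 21.7% of all genes were. Ebf3, another early B-cell factor, had a log2 fold change of 2.49 ± 0.35 (SE; edgeR adjusted p = 7.61e-08), with 4.28 CPM (IP) and 0.821 CPM (supernatant). The IP without Cre held 0.154 CPM of Ebf3. Six6 was thus higher in the IP while Six2 (-1.52) and Six3 were lower, and Ebf3 was higher while Ebf1 (-1.30) was lower and Ebf2 not called. Vax2 (-2.84) was under 0.2 CPM in both fractions, and Dlx2 (-0.50), which lies beside Dlx1, was 44.2 CPM (IP) and 63.0 CPM (supernatant).

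Transcripts beside or opposite the members matter here because a library kit that does not mark strand lets an overlapping gene share reads. Exons of an opposite-strand gene covered 6.21% of the exon bases of Dlx1 (Dlx1as), 8.79% of Emx2 (Emx2os), 4.79% of Six6 (4930447C04Rik), 6.12% of Ebf2 (Gm10860), and less of Otx2 and Six3. Of the neighbouring transcripts, Metap1d, beside Dlx1, was called higher in the IP (0.87), as in the pair without Cre (log2 ratio 0.80). Dlx1as (-0.18) and Dlx6as, listed as Dlx6as2 (-1.66), were called lower, and Dlx6as was under 0.25 CPM on average in both fractions. Otx2os1 (1.35), Six3os1 (0.01), Emx2os (0.52), Dlx6os1, listed as Dlx6as1 (0.17), and 4930447C04Rik (0.28) were not called. Gm1976 (0.13), which had been listed beside Dlx1, lies on chromosome 17 in RefSeq and is no neighbour of a member. The transcript opposite Six6 had 3.28 CPM (IP) and 2.83 CPM (supernatant), against a mean of 57.0 CPM of Six6 in the IP.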

How the data were processed

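The deposited table held estimated counts per gene, which per the submitters' processing notes followed work on the mouse build mm10 with TopHat2 2.0.13 and Bowtie2 2.2.1 among the tools named, and HTSeq 0.6.1, Cuffdiff 2.1.1, Cufflinks, DESeq2 1.14.1 and FastQC 0.11.3 besides. The tool behind the counts is not stated there. Of the values, 98.5% were whole, with no tolerance, and the rest were rounded. Per the labels' protocols the library kit was SMARTer v4 Ultra Low, which does not mark strand. IP and supernatant were compared in 1 edgeR 4.0.16 fit of 46 libraries (16660 genes kept by filterByExpr, minimum count 10, minimum total 15), and age and treatment within the 23 libraries of each fraction (15890 genes in IP, 16286 in supernatant), with TMM scaling, the robust quasi-likelihood F test and Benjamini-Hochberg adjustment at 0.05 over all genes. The standard error came from the F statistic. The 2 libraries without Cre entered no fit.

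CPM was scaled to the library total (28136000 to 55479451 counts), and log2 CPM for correlations had 0.5 counts added. Correlations were tested two-sided with 100000 permutations and adjusted over the 10 members. Intervals on single libraries are exact at 95% (Poisson for counts, Clopper-Pearson for ratios) and cover counting error only. All 10 members were named in every comparison, with up to 6 called genes of smallest adjusted p from the lists of 25 other regulators and 15 relatives, every listed neighbour, and the 3 most like genes for 3 members. The members, lists and tests were chosen with earlier results of these data known. In simulated counts edgeR recovered 69 of 100 genes changed 2-fold and 90 of 100 changed 4-fold between IP and supernatant (16660 genes), 33 and 52 between DHT and vehicle in adult IP (15890 genes), and 75 and 92 between ages in vehicle supernatant (16286 genes). For IP against supernatant the simulation gave both fractions the same spread per gene. The real IP replicates were less alike than those of the supernatant, so that recovery may not hold for these data. Alternatives were RLE size factors, DESeq2 1.42.0, limma-voom 3.58.1 with sample weights, no filter, a filter of 1 CPM, a replicate block, fits of only the groups compared, a term for or removal of the last 10 sample numbers, and each library left out. The comparison with suprachiasmatic genes was added after the data had been seen. Vax2os was not analysed here, and some listed genes that the rule named are not reported here.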

Additional observations from a re-analysis of the deposited data

Results flagged for a closer look

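The difference between adult and young mice in the IP to supernatant ratio was called for Six3, 0.56 on the log2 scale, because the test of that difference itself passed.

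Within groups of 5 or 6 libraries, 80 sets of values were searched for a single library far from the rest, by the gap to its nearest neighbour over the range of the group, and 6 were found. Chance flags about 1 in 20 groups if values are normally distributed, which was not checked for these CPM. Otx2 had 0.324 CPM in young DHT IP replicate 3, against 3.91 CPM in the nearest library of the group. Six3 had 79.7 CPM in young DHT supernatant replicate 4, against 96.1 CPM. Isl1 had 117.6 CPM in young DHT IP replicate 1, against 89.4 CPM. Dlx5 had 51.8 CPM in adult DHT supernatant replicate 6, against 40.7 CPM. Emx2 had 5.79 CPM in adult DHT supernatant replicate 4, against 4.03 CPM. Ebf2 had 2.35 CPM in adult vehicle IP replicate 4, against 0.276 CPM. The library was a different one for each gene.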

How the results depend on the processing

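For the mean of the 4 conditions, all of the 6 called members kept their direction in every alternative, and all but Emx2 kept their call. Emx2 lost it without the last 10 sample numbers (-0.74, edgeR adjusted p = 0.119). Uncalled members turned in sign for Otx2 (-0.027, limma-voom), Ebf2 (-0.77 limma-voom, -0.90 replicate block, -0.17 without adult vehicle IP replicate 4) and Dlx1 (-0.0080 without adult vehicle IP replicate 2). Leaving out 1 library at a time gave -0.0080 to 0.065 for Dlx1 and -0.17 to 0.46 for Ebf2. Removing the last 10 sample numbers, all of young mice, leaves smaller young groups. It left 3 called members in young vehicle, 2 in young DHT and 0 for the age difference in the ratio, which limma-voom also put at 0. For adult against young vehicle IP the count of 1 became 0 under RLE, limma-voom, no filter, the replicate block, the sample-number term, the compared groups alone and removal of the last 10 (0 to 1 leaving out 1 library). For DHT IP it became 1 in DESeq2 (0 to 1), for vehicle supernatant 2 in DESeq2 and with the replicate block (0 to 2), and for DHT supernatant 1 in limma-voom, with the replicate block and with the groups alone (0 to 1). Ebf2 was not tested under the filter of 1 CPM. Deviations of IP and supernatant libraries with the same number correlated between -0.08 and 0.29, with 7 of 23 pairs over 0.1. Even so, 17 of 23 IP libraries were most like the supernatant of their own number, so the numbers may well mark pairs. The labels do not say this in words, and the main fit left such pairing out. With the replicate block, 6 members were still called on the mean of the 4 conditions. Over all genes that fit called 3530 higher and 5867 lower, against 4065 and 3619 in the main fit. Pearson's r with Gnrh1 in young mice alone was -0.059 for Otx1, 0.31 for Six6, 0.15 for Isl1, -0.51 for Six3, -0.38 for Dlx1 and -0.29 for Dlx5, and -0.0037 for Dlx1 in adults alone. With the suprachiasmatic genes r turned for Otx1 (-0.13 young, -0.33 adult), Otx2 (0.079 young) and Dlx5 (0.22 adult). Over all genes, counts of calls moved by more than 1.5 times for DHT in young IP (2 DESeq2), young supernatant (39 without the last 10, 1 DESeq2), adult supernatant (1 limma-voom) and the difference of DHT effects (50 DESeq2 in IP, 4 without the last 10 in supernatant), in DHT adult IP (151 DESeq2, 0 limma-voom, 3 sample-number term, 0 groups alone, 2 without the last 10), adult against young vehicle IP (1149 DESeq2, 963 limma-voom, 372 without the last 10), adult against young DHT IP (1771 DESeq2, 672 sample-number term, 277 without the last 10) and adult against young DHT supernatant (1919 sample-number term, 1121 without the last 10). The same held for IP against supernatant in young vehicle (5646 limma-voom), young DHT (1584 without the last 10), adult vehicle (2480) and adult DHT (2090), both with groups alone, and for the age difference in the ratio (486 with the 1 CPM filter).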
